A study of Mus musculus with 2 samples.

Results

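The genes described here are 10 mouse genes that make, sense and break down prostaglandins: Pla2g4a, Ptgs1, Ptgs2, Ptges, Ptgds, Ptgis, Ptger2, Ptger4, Ptgfr and Hpgd. They are 10 of the 19505 genes that could be named on the array. The set was chosen by its measured values, because Ptgs2 stood among the genes most lowered in reaggregation culture, and that choice rests on the same arrays and the same contrast as the values below. The members are therefore described without a test.

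Thymic stromal cells of C57BL/6 mice were compared in 2 kinds of culture. Fetal thymus lobes taken at E14.5 or E15.5 were kept in organ culture with 1.35 mM deoxyguanosine, an agent that kills developing thymocytes, for 8 days (E14.5) or 9 days (E15.5). The lobes were then dispersed with enzyme, and the cells were either spread on a culture dish (2D culture) or packed together on a membrane as a reaggregation thymus organ culture (RTOC), each for 72 h. Both cultures thus received deoxyguanosine, and neither is an untreated thymus. RNA of each pair was hybridized to a single 2-colour array, with 2D culture in Cy3 and RTOC in Cy5, giving 1 array from E14.5 and 1 from E15.5 cells. The comparison asks which transcripts differ between stromal cells packed together and the same kind of cells spread flat. The dyes were not swapped, so dye and culture cannot be told apart, and neither can stage, days in organ culture and array. The number of arrays, 2, limits the precision of every value. Whether one RNA came from 1 litter or from several was not given in the sources used here, and the RNA is from whole cultures, in which fewer cells of a type and less RNA per cell cannot be told apart.

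Prostaglandins are short-lived lipids made on demand. A phospholipase frees arachidonic acid from membranes, a cyclooxygenase turns it into prostaglandin H2, and terminal synthases convert that into prostaglandin E2, D2, F2α, prostacyclin or thromboxane, which act on G-protein-coupled receptors of nearby cells before they are taken up and oxidized. Ptgs1 is the cyclooxygenase found in many resting cells, whereas Ptgs2 is the inducible one, switched on by growth factors, cytokines and injury in fibroblasts, epithelium and macrophages.

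The sequences that the Ptgs2 and Hpgd values rest on are the array probes, since the independent probes of these genes gave unlike sizes of ratio. The first 30 of the 60 bases of each are given 5′ to 3′, as the array's design lists them.
Ptgs2 main probe: ctgaagaattgctttcttacttaaaaacaa
Ptgs2 repeated probe: tttttgaaaagtttgaagttagaacttagg
Hpgd main probe: ctcagactgcatctttactagtgtagcttt
Hpgd second probe: aagctcctttacaatggaaatatttagtaa
No probes of one gene shared more than 6 consecutive bases, so that each reads its own stretch of the transcript.

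In the mouse genome (GRCm38.p6, RefSeq), Ptgs2 lies at chr1:150100031-150108234 on the plus strand. Pla2g4a, which provides its substrate, lies beside it at chr1:149829618-149961290 on the minus strand, with 138740 bases and no protein-coding gene between them. The stretch between holds a pseudogene, Gm19136, and a long noncoding RNA, Ptgs2os, whose nearer edge lies 156 bases from the Ptgs2 start. The strand of Ptgs2os was not examined, and the upstream bases printed below overlap it in part. The start of Ptgs2 is shown because this gene had the lowest ratio of the set. The 250 bases upstream (chr1:150099781-150100030) and the first 30 bases of the annotated gene (chr1:150100031-150100060) are given below on the plus strand. Matches to the searched motifs are in capitals. All positions count from the start that RefSeq annotates, and where transcription starts in these cells was not measured.
Ptgs2 upstream: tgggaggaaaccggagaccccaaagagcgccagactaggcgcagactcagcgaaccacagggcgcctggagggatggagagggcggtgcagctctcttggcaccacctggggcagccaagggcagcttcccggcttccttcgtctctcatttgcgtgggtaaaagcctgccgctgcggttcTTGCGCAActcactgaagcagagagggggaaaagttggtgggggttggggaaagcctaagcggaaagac
Ptgs2 first bases: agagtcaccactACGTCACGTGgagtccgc
The capitals upstream mark TTGCGCAA, a palindrome bound by C/EBP factors, which begins 69 bases before the start and occurred in 0.183% of 32851 RefSeq promoter windows, each running from 250 bases before to 50 bases after a start. The capitals after the start mark the cAMP response element core ACGTCA, beginning at base 13, and the E-box CACGTG, beginning at base 17, which overlap. ACGTCA occurred in 7.51% and CACGTG in 7.15% of all windows, both strands searched. Of the 9 members with a window, Ptgs2 alone held any of these 3 motifs. An AP-1 motif, TGANTCA (7.81% of windows), was found only at Ptgds, and TATAAA (13.6%) at Hpgd and at 1 of the 2 Pla2g4a starts. These are letter matches only, and no binding was measured.

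The remaining members are spread over several chromosomes. Ptgds (chr2:25466709-25470110), Ptges (chr2:30889471-30931020), Ptgs1 (chr2:36216742-36258593) and Ptgis (chr2:167203194-167252150) are all on chromosome 2. The receptor genes are Ptger2 (chr14:44988111-45003820), Ptger4 (chr15:5233399-5244187) and Ptgfr (chr3:151798610-151837528), and Hpgd is at chr8:56294552-56321046.

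The values given for each gene are normalized intensities in arbitrary units, which may be set against each other only within a probe, and the log2 ratio of RTOC over 2D culture. Where a gene has several probes, the brightest one tested stands for it and is called its main probe. A probe was tested where at least 1 culture was well above background on each array. Of the 10 genes, 8 had such a probe, and for 7 all 4 channels cleared background. Across the array, between 53.1% and 60.9% of spots were well above background in a channel, and the median log2 ratio of the 13503 genes tested was 0.00. The cells carried the marks of thymic stroma: all 15 thymic epithelial markers examined were well above background in RTOC, and 14 of them in 2D culture.

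Ptgs2 had the lowest ratio of the set, and the RNAs of the phospholipase Pla2g4a, both cyclooxygenases and the terminal synthases Ptges and Ptgis were all lower in RTOC than in 2D culture. Hpgd, which inactivates prostaglandins, was higher in RTOC. The receptor genes were dim or differed between the arrays. At least 2-fold lower on both arrays were 5 genes, Pla2g4a, Ptgs1, Ptgs2, Ptges and Ptgis, and 9.06% of all genes tested were that low. At least 2-fold higher on both arrays was 1 gene, Hpgd, where 11.5% of all genes tested were that high. Since the set was picked on this contrast, nothing is read from these shares.

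**Figure D1:**
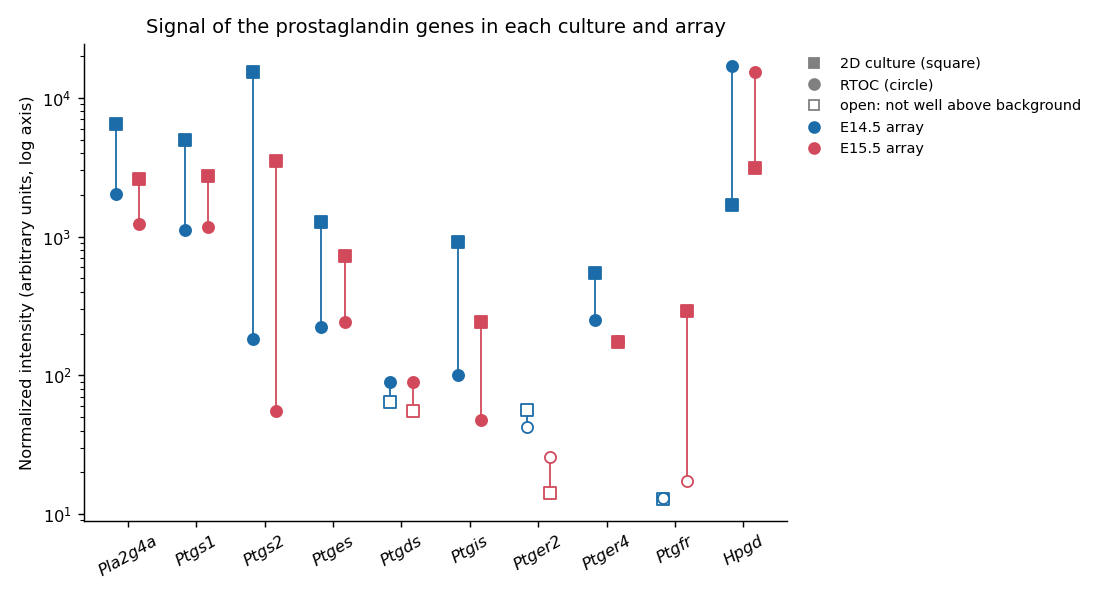
Normalized intensity (arbitrary units, log axis) of the main probe of each of the 10 genes, with 2D culture as squares and RTOC as circles, E14.5 in blue and E15.5 in red, 1 array each. Open symbols were not well above background. Heights can be compared within a gene only. For Ptgs2 the lines fall from 15293 to 184 and from 3535 to 55.2, whereas for Hpgd they rise, and for Ptger4 at E15.5 both symbols coincide.

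Pla2g4a, the cytosolic phospholipase A2 that frees arachidonic acid, had a signal of 6528 in 2D culture and 2027 in RTOC at E14.5, and of 2604 and 1237 at E15.5. RTOC was the lower culture on both arrays. Its log2 ratio was -1.69 and -1.07, a mean of -1.38 ± 0.43 (SD, n = 2), or 2.60-fold lower in RTOC. A second Pla2g4a probe gave 2942 and 997 at E14.5 and 1189 and 533 at E15.5, with a mean log2 ratio of -1.36 ± 0.29 (SD, n = 2). Both probes placed E14.5 further down than E15.5, and their means differed by less than either SD.

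Ptgs1, the cyclooxygenase of resting cells, gave 4937 in 2D culture and 1110.2 in RTOC at E14.5, and 2742 and 1172 at E15.5. The RTOC signals of the 2 arrays were close to each other, while those of 2D culture were not. The log2 ratios were -2.15 and -1.23, with a mean of -1.69 ± 0.66 (SD, n = 2), a 3.23-fold lower level in RTOC.

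Ptgs2, the inducible cyclooxygenase, stood at 15293 in 2D culture and 184 in RTOC at E14.5, and at 3535 and 55.2 at E15.5, all 4 well above background. The cultures did not come near each other on either array. The log2 ratio of this main probe was -6.38 at E14.5 and -6.00 at E15.5, a mean of -6.19 ± 0.27 (SD, n = 2), or 73.0-fold lower in RTOC. Among the 13503 genes tested it ranked 4 from the lowest. By main probes its SD was the smallest among the 5 lowered genes even though its signal differed the most between the stages. This depends on the probe, since the second Ptgs2 probe had an SD of 1.01.

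The second Ptgs2 probe was printed 10 times on the array, which shows how far the measurement itself varied. In 2D culture its spots ran from 12251 to 13337 at E14.5 and from 2985 to 3250.1 at E15.5, with coefficients of variation of 2.43% and 2.55%. In RTOC they ran from 14.9 to 62.7 and from 14.0 to 32.1, and the probe was not well above background there on either array. The spot-to-spot spread of the log2 ratio, from -9.77 to -7.71 (median -8.49) at E14.5 and from -7.84 to -6.61 (median -7.11) at E15.5, thus came with near-identical 2D signals and dim RTOC ones. For such a dim probe a bound is given, on separately background-corrected values. On each array the dim level is its own signal or the lowest signal well above background, whichever is higher. For this probe the bound was 13.6-fold, close to the ratio of those background-corrected values themselves. The measured mean log2 ratio was -7.81 ± 1.01 (SD, n = 2). Even the spot with the least negative ratio, -6.61, was below both ratios of the main probe, so the probes placed Ptgs2 lower in RTOC alike but did not give 1 size.

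**Figure D2:**
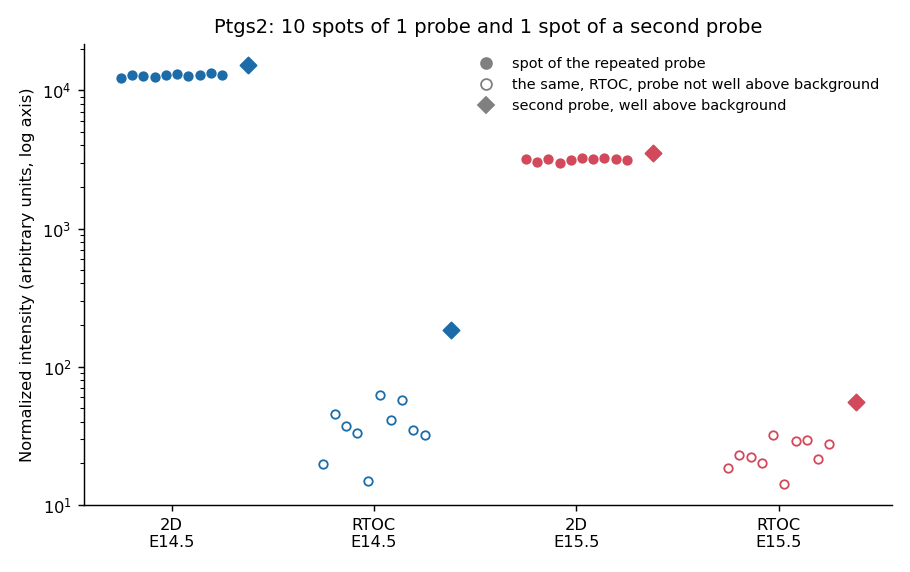
Normalized intensity (arbitrary units, log axis) of the 10 spots of the repeated Ptgs2 probe (circles, open where the probe was not well above background) and the single spot of the main probe (diamonds) in 2D culture and RTOC, E14.5 in blue and E15.5 in red. The circles lie between 12251 and 13337 in 2D culture at E14.5 and between 14.9 and 62.7 in RTOC, and no RTOC spot reaches a 2D spot on either array.

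Of the terminal synthases, Ptges, the inducible microsomal prostaglandin E synthase that works beside Ptgs2, gave 1285 in 2D culture and 224 in RTOC at E14.5, and 723 and 241 at E15.5. Its log2 ratios of -2.52 and -1.59 had a mean of -2.05 ± 0.66 (SD, n = 2), 4.15-fold lower in RTOC. As with Ptgs1, the RTOC signals of the arrays were nearly equal and those of 2D culture set the difference between the ratios.

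Ptgis, prostacyclin synthase, an enzyme of vessel walls and fibroblasts, gave 914 in 2D culture and 101 in RTOC at E14.5, and 244 and 47.5 at E15.5. After Ptgs2 it had the lowest ratio of the set, with log2 ratios of -3.18 and -2.36 and a mean of -2.77 ± 0.58 (SD, n = 2), or 6.82-fold lower in RTOC. Ptgds, the lipocalin-type prostaglandin D synthase, was dim: 64.4 in 2D culture, not well above background, and 90.1 in RTOC at E14.5, and 55.3 and 89.9 at E15.5. On background-corrected values its RTOC signal was 1.03-fold that of 2D culture, which takes the dim 2D signals as measured and is no lower limit. Its log2 ratios of 0.48 and 0.70 (mean 0.59 ± 0.15, SD, n = 2) likewise rest on 2D signals that did not clear background. Of these synthase genes, Ptges and Ptgis were thus lower in RTOC and Ptgds was at the edge of detection.

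**Figure D3:**
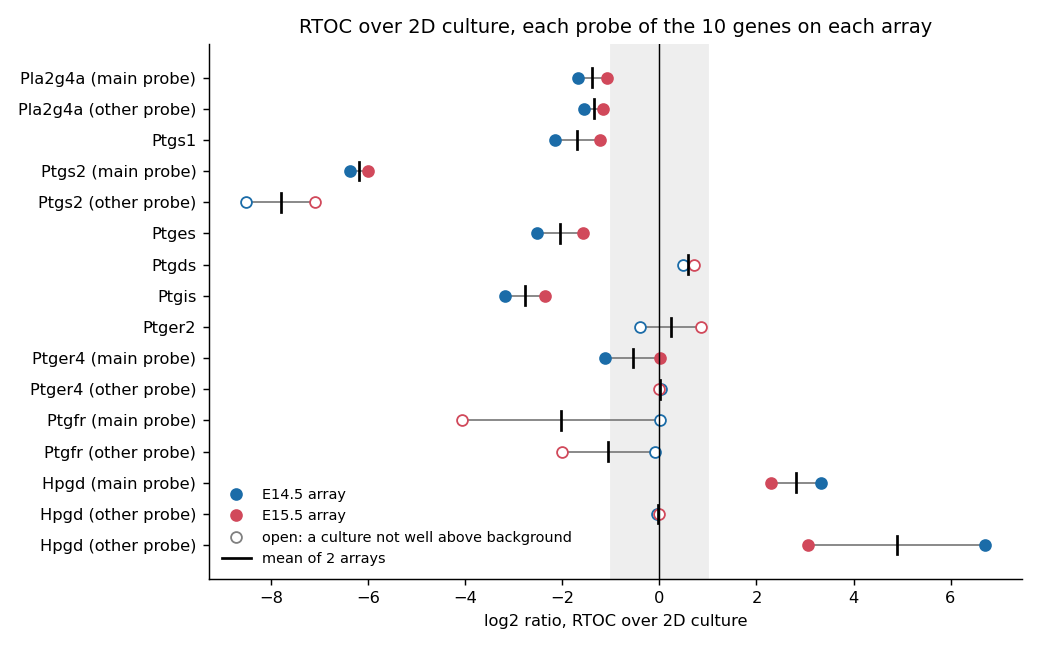
Log2 ratio of RTOC over 2D culture for each of the 16 probes of the 10 genes, E14.5 in blue and E15.5 in red, with a black bar at the mean of the 2 arrays. Open symbols mark a probe with at least 1 culture too dim on that array, and the grey band covers changes under 2-fold. Ptgs2 lies far to the left, at -6.38 and -6.00 for the main probe, the probes of Hpgd that were detected lie to the right, and the receptors reach from the band to -4.07, Ptgfr at E15.5.

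Ptger4, which encodes the EP4 receptor for prostaglandin E2 and raises cAMP, was the only receptor of the set detected in both cultures on both arrays. It gave 543 in 2D culture and 251 in RTOC at E14.5, but 175 and 177 at E15.5. The log2 ratios were -1.12 and 0.01, with a mean of -0.55 ± 0.80 (SD, n = 2), so the arrays differed by more than the mean itself. A second Ptger4 probe was dim everywhere, between 14.1 and 14.7.

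Ptger2, the EP2 receptor, which also raises cAMP, was not well above background in any channel, with 56.6 in 2D culture and 42.7 in RTOC at E14.5 and 14.2 and 25.9 at E15.5. No fold is given for it. Ptgfr, the receptor for prostaglandin F2α, was well above background only in 2D culture at E15.5, where its main probe gave 291 against 17.3 in RTOC, while at E14.5 it gave 12.9 and 13.0. Its log2 ratio was -4.07 at E15.5 and 0.02 at E14.5, where both cultures were dim. The bound on its mean level, 1.27-fold lower in RTOC, takes in the dim 2D signal of E14.5 as if measured. Only the E15.5 array therefore shows a difference for Ptgfr. The other Ptgfr probe was dim in all channels, though it too was brightest in 2D culture at E15.5, at 61.6 against 15.2 to 17.8 in the others.

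Hpgd, which encodes the dehydrogenase that oxidizes and so inactivates prostaglandins, ran opposite to Pla2g4a, Ptgs1, Ptgs2, Ptges and Ptgis. Its main probe gave 1689 in 2D culture and 17103 in RTOC at E14.5, and 3140 and 15384 at E15.5. RTOC was thus the higher culture on both arrays, by log2 ratios of 3.34 and 2.29 (mean 2.82 ± 0.74, SD, n = 2), or 7.04-fold. It ranked 374 from the highest among the 13503 genes tested. Its second probe gave 192 and 20254 at E14.5 and 2185 and 18224 at E15.5, with log2 ratios of 6.72 and 3.06 and a mean of 4.89 ± 2.59 (SD, n = 2). The probes placed Hpgd higher in RTOC alike, yet at E14.5 their ratios were far apart. Within the second probe the 2D signal was 192 at E14.5 against 2185 at E15.5. Why the probes differed was not tested. The last Hpgd probe was dim in all channels, between 13.7 and 14.3.

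The lowered genes also differed between the stages within a culture. In 2D culture the signal at E14.5 was 4.33 times that at E15.5 for Ptgs2, 3.75 times for Ptgis, 3.10 times for Ptger4, 2.51 times for Pla2g4a, 1.80 times for Ptgs1 and 1.78 times for Ptges. In RTOC the same ratio was 3.33 for Ptgs2, 2.13 for Ptgis, 1.64 for Pla2g4a and 1.42 for Ptger4, but 0.947 for Ptgs1 and 0.927 for Ptges. Hpgd ran the other way in 2D culture, with 0.538 by its main probe and 0.0879 by its second, and was level in RTOC at 1.11 by both. E14.5 cells in 2D culture thus held the highest signal of all 4 cultures for each of the 5 lowered genes and the lowest for Hpgd. Each stage is a single array, so no spread stands behind these ratios and they carry no test.

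The genes whose pair of log2 ratios lay nearest to that of Ptgs2 were Olr1, a scavenger receptor for oxidized lipoprotein, at a Euclidean distance of 0.278, Ppbp, a chemokine precursor, at 0.465, Csf2, the growth factor GM-CSF, at 0.791, Pbp2 at 1.17 and Dgkk, a diacylglycerol kinase, at 1.28. Of these only Ppbp cleared background in RTOC on both arrays. Around Hpgd lay Mfng, a glycosyltransferase that acts on Notch, at 0.0572, then Slc2a9 at 0.0880, Gimap1 at 0.0895, Pnpla3 at 0.0964 and Chd6 at 0.133. Apart from Chd6, these were dim in 2D culture on both arrays. The distances are over 2 arrays among 13503 genes and describe likeness of ratio only.

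Among 38 other genes of prostanoid metabolism and signalling, 36 were on the array and 24 could be tested with limma. In RTOC 5 of these rose and 3 fell at an adjusted p under 0.05, against 15.4% of all genes tested that rose and 12.7% that fell, and 16 passed in neither direction. The median log2 ratio of the list was 0.18. A further 12 genes, most of them secreted or rarely expressed phospholipases, were not well above background in either culture. These calls depend on the fit. With the array pairing dropped, limma called 4 higher and 0 lower, and without the filter on dim probes 0 in either direction. In each of these fits 9 genes had an unadjusted p under 0.05. Over the whole array, 6818 probes passed in the main fit, 4030 with the pairing dropped and 0 without the filter. The 0 without the filter is thus not particular to these genes.

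Hpgds, the hematopoietic prostaglandin D synthase, had 289 in 2D culture and 1392 in RTOC at E14.5, and 171 and 742 at E15.5. It rose by a log2 ratio of 2.19 ± 0.10 (SD, n = 2; limma adjusted p = 0.00398). Prxl2b, a prostamide and prostaglandin F synthase, rose by 2.59 ± 0.26 (adjusted p = 0.00297), from 7117 to 48924 at E14.5 and from 9653 to 51205 at E15.5. Cbr1, a carbonyl reductase that can turn prostaglandin E2 into F2α, rose by 1.28 ± 0.47 (adjusted p = 0.0265). Plaat3, a phospholipase of adipose tissue, rose by 1.39 ± 0.83 (limma adjusted p = 0.0373), and its second probe, dim in 2D culture, was 1.16-fold higher in RTOC by its bound. All of these were higher in RTOC on both arrays.

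On the falling side, Ptges2, a membrane-associated prostaglandin E synthase, gave -1.37 ± 0.74 on the log2 scale (SD, n = 2; limma adjusted p = 0.0335). Its signal went from 999 in 2D culture to 554 in RTOC at E14.5 and from 2364 to 634 at E15.5, so that here E15.5 had the lower ratio, unlike Ptges. Ptges3, the cytosolic E synthase and chaperone partner, had -0.28 ± 0.34 and did not pass (adjusted p = 0.471). Akr1b3, an aldose reductase with F synthase activity, fell to -0.97 ± 0.18 (adjusted p = 0.0406). Ptgfrn, which binds and restrains the F2α receptor, fell to -1.09 ± 0.24 (adjusted p = 0.0315), and its second probe gave -2.30. Tbxas1, thromboxane synthase, had -0.55 ± 0.40 and did not pass (adjusted p = 0.187).

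Of the receptors outside the set, only Ptger3 passed the test. Ptger3, the EP3 receptor for prostaglandin E2, which lowers cAMP where EP2 and EP4 raise it, had 103 in 2D culture and 720.2 in RTOC at E14.5, and 50.5, not well above background, and 950.2 at E15.5. It rose by 3.52 ± 1.01 (SD, n = 2; limma adjusted p = 0.00379), the highest ratio of the list. A second Ptger3 probe, dim in 2D culture on both arrays, was 1.10-fold higher in RTOC by its bound. Another was dim in all channels, so the size rests on 1 probe. Ptgdr2, a receptor for prostaglandin D2, had -0.22 ± 0.09 (adjusted p = 0.543), and Tbxa2r, the thromboxane receptor, had -0.31 ± 0.31 (adjusted p = 0.422). Ptgir, the prostacyclin receptor, had log2 ratios of -0.97 and 1.33 and a mean of 0.18 ± 1.63 (adjusted p = 0.827), while its second probe gave a mean of -0.51. Ptger1 and Ptgdr were not well above background anywhere. The uptake carrier Slco2a1, which brings prostaglandins to Hpgd, had 1.11 ± 0.90 and did not pass (adjusted p = 0.0747).

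**Figure D4:**
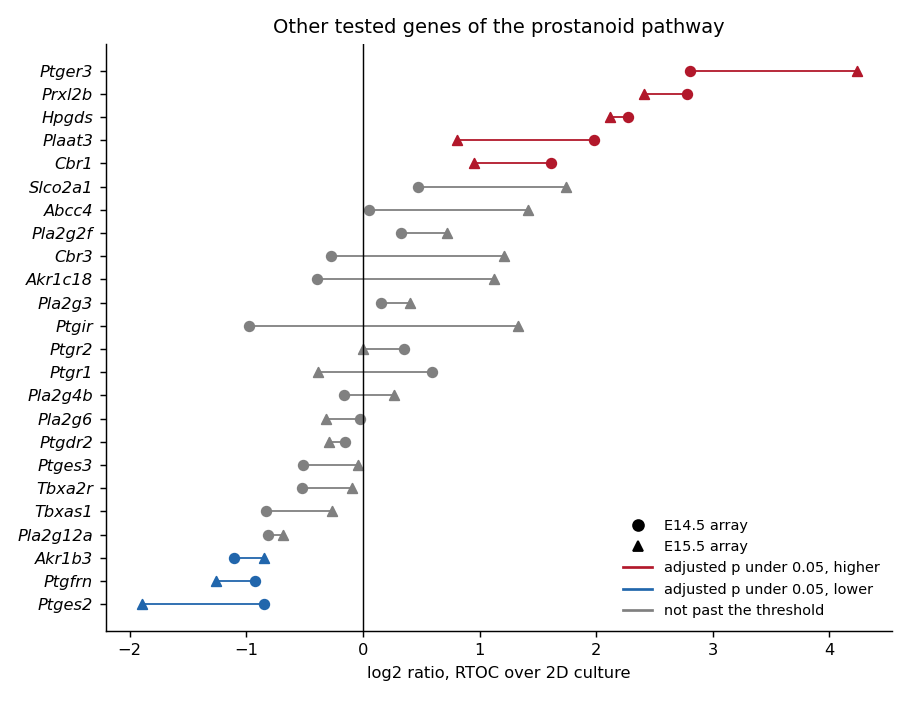
Log2 ratio of RTOC over 2D culture for the 24 other genes of prostanoid metabolism and signalling that could be tested, with circles for the E14.5 array and triangles for E15.5. Red marks the 5 genes higher and blue the 3 genes lower at a limma adjusted p under 0.05, and grey the 16 past neither. Ptger3 is at the top, at 2.81 and 4.23, and Ptges2 at the bottom, at -0.85 and -1.90.

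Lipoxygenases are the other main users of arachidonic acid. Of 12 tested genes of lipoxygenase and leukotriene metabolism, 4 rose and 0 fell with limma (0 fell at an unadjusted p under 0.05). The other 8 passed in neither direction, and the median log2 ratio was 0.69. Over all genes tested the shares were 15.4% that rose and 12.7% that fell. Cysltr2, a receptor for cysteinyl leukotrienes, was dim in 2D culture and 3.68-fold higher in RTOC by its bound. Its limma adjusted p, 0.0016, belongs to the measured log2 ratio, which rests on those dim 2D signals, and not to the bound. Alox12e, an epidermal lipoxygenase, rose by 3.35 ± 0.39 (SD, n = 2; limma adjusted p = 0.00219). Among 14 tested genes that respond to cAMP and CREB, 2 rose and 4 fell, with a median of -0.13. Of all genes tested, 15.4% rose and 12.7% fell. Areg, an epidermal growth factor receptor ligand, fell by 4.06 on the log2 scale and Bdnf by 3.80, while Rgs2 rose by 2.27 and Pde4b, a phosphodiesterase that degrades cAMP, by 1.30.

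Ptgs2 is also counted among inflammatory response genes, and the other genes of that kind that passed the test were lower in RTOC. Of 20 tested, 0 rose and 11 fell with limma (2 rose at an unadjusted p under 0.05), with a median log2 ratio of -1.21. The shares over all genes tested were 15.4% that rose and 12.7% that fell. By their bounds Il6 was 11.9-fold lower and Csf2 3.08-fold lower in RTOC, both dim there on both arrays. The limma adjusted p, 0.0016 for each, belongs to their measured log2 ratios and not to these bounds. Tnf, with -0.05 ± 0.26 (adjusted p = 0.910), and Il1a, with -0.26 ± 0.30 (adjusted p = 0.487), did not pass.

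Markers of the cell types that the cultures could hold differed between them as well. The counts are limma calls at an adjusted p under 0.05, by which 15.4% of all genes tested were higher and 12.7% lower in RTOC. The summed intensities given here run over the same probes in each culture and are set mostly by the brightest of them. Smooth muscle and contractile genes were lower in RTOC in 7 of 8 tested, with a summed intensity of 622023 to 723423 in 2D culture and 52022 to 80470.3 in RTOC, and Des dim in both. Fibroblast and mesenchyme genes split, with 4 higher and 6 lower of 12 and sums of 391775 to 566562 against 303927 to 321047. Thymic epithelial genes were higher in 9 and lower in 3 of 15, with sums of 323101 to 662953 in 2D culture and 1107080 to 1108890 in RTOC. Endothelial genes were higher in 9 of 10 (sums of 2119 to 2235 against 11117 to 15793) and macrophage genes in 8 of 12 (77015 to 87617 against 216978 to 265382). Mast cell genes were higher in 4 of 6 tested (495 to 568 against 1528 to 3733), Ms4a2 being dim in both cultures. Of thymocyte genes 2 were higher and 1 lower of 7 tested (4134 to 7717 against 3630 to 4872), with Cd8a and Rag2 dim in both. Most of the thymocyte sum in 2D culture was Thy1, a gene fibroblasts also express, which fell by 1.25 on the log2 scale (limma adjusted p = 0.0281), while Cd3g rose by 3.84 (adjusted p = 0.00174). The part of these cell types in the values of the prostaglandin genes was not tested.

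**Figure D5:**
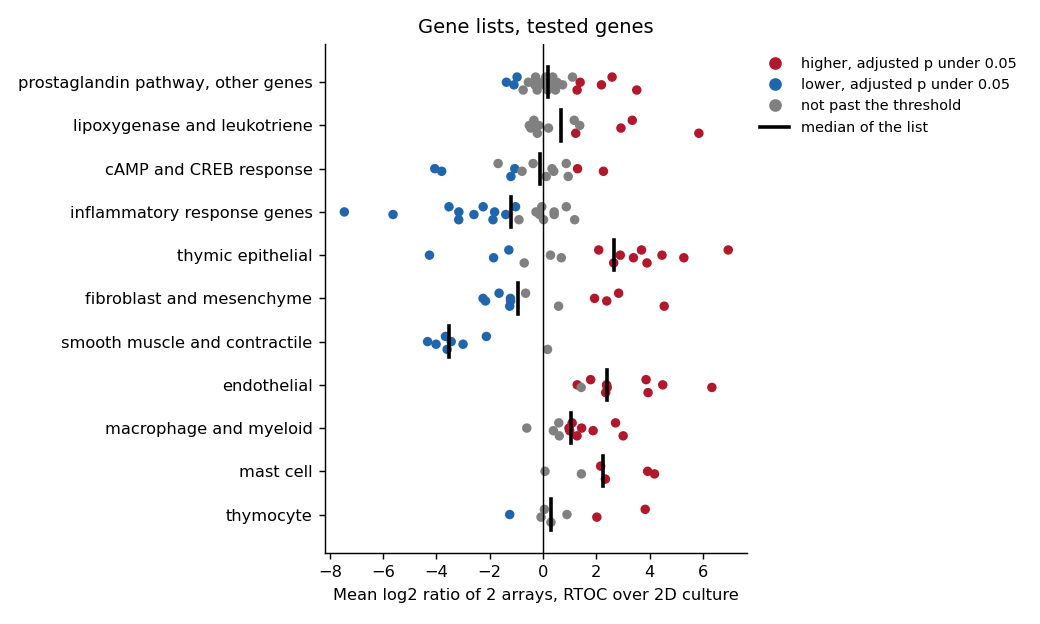
Mean log2 ratio of RTOC over 2D culture (2 arrays) of each tested gene in 11 lists, the 10 prostaglandin genes described first not included. Each point is a gene, red where it was higher and blue where it was lower at a limma adjusted p under 0.05, grey otherwise, and the black bar is the median of the list. Inflammatory and contractile genes lie to the left, with medians of -1.21 and -3.52, and endothelial and epithelial genes to the right, with medians of 2.40 and 2.65.

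Background correction changed how many of the prostaglandin genes passed 2-fold. With normexp correction and loess, which pull dim signals together, only Ptgs2 was at least 2-fold lower on both arrays (-4.52 and -2.78), and Ptges had -1.25 and -0.75 and Ptgis -1.17 and -0.46. The direction of the 5 lowered genes and of Hpgd was the same under that correction as in the values above.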

How the data were processed

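Total RNA was amplified, labeled and hybridized to Agilent 4x44K mouse arrays. The deposited scanner files hold background-subtracted, dye-normalized intensity per spot, made by the authors with Agilent Feature Extraction (version 11.5.1.1 per the labels, 9.1.3.1 per the file headers), and the deposited series table holds the log10 ratio of Cy5 over Cy3, which differed from that of the processed signals by at most 5e-10. Control spots were removed, leaving 43379 spots. Outlier spots, 5 at E14.5 and 1 at E15.5, were set to missing on their array. Processed signals of the 4 channels were quantile normalized together, as the study's methods state, and log2 ratios were averaged over the spots of each of 41174 probes. Probes were named through the RefSeq gene table by accession (22951), symbol (6659) or older symbol (3109), and 8455 were not named.

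The 23681 probes with at least 1 culture well above background on each array were tested with limma 3.58.1 in R 4.3.3 (intercept, eBayes, two-sided, Benjamini-Hochberg over all probes, threshold 0.05), which was first tested on simulated data. The fit has 1 residual degree of freedom, to which eBayes adds 4.50 prior degrees of freedom from the variance pooled over all probes tested. The labels name the arrays as separate samples but not separate cultures or animals of one stage. The p-values thus rest on the spread between 2 arrays, which differ in stage, and for the larger part on that spread pooled over probes. They do not measure a spread between cultures or animals of one stage. A probe not well above background in a culture on both arrays is given as a bound, from normexp (offset 50), loess and Aquantile values. In that culture the higher of its own signal and the lowest signal well above background was taken on each array. Where its own signal was the higher on both arrays, the bound equals the ratio of those values. The bounds are thus not strict limits. The brightest tested probe stood for a gene. Named were the 10 members, called genes and receptors of the pathway list, up to 2 called genes at each end of the other lists, and the 5 genes nearest to Ptgs2 and to Hpgd. Ptges3, Tbxas1, Slco2a1, Tnf and Il1a were named after their values were seen. Members and lists were chosen with earlier results of these data known. Alternatives were other background correction, centring and filters, the deposited series ratios, a fit without the array pairing, other limma settings, a t-test and each array alone.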

Additional observations from a re-analysis of the deposited data

Results flagged for a closer look

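Ptger4 is listed here because its log2 ratio had opposite signs on the arrays, -1.12 at E14.5 and 0.01 at E15.5, a difference of 1.13. Among the other prostanoid genes the same held for Ptgir (2.31, E15.5 minus E14.5), Akr1c18 (1.51), Cbr3 (1.49), Pla2g4b (0.42) and Ptgr1 (-0.99). With 1 array for each stage, none of these differences was tested.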

How the results depend on the processing

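The main count of members at least 2-fold lower on both arrays, 5, was 1 after normexp and loess (also 1 with Aquantile between arrays) and 3 after median centring, where Ptgs1 had -0.97 and Pla2g4a -0.82 at E15.5. Median centring moved the median of all tested probes from 0.00 to 0.24 at E15.5. On single arrays that count ran from 5 to 6, and 1 member was higher under every setting. Of the pathway genes 5 rose and 3 fell. Without a filter on dim probes 0 rose and 0 fell with limma (9 of 36 at an unadjusted p under 0.05). The methods' t-test, a plain t-test, likewise gave 0 and 0 (2 at an unadjusted p under 0.05). In both of these, 0 probes of the whole array passed, against 6818 in the main fit. With no replicate block, that is, with the cultures as separate groups and the array pairing dropped, 4 rose and 0 fell (9 at an unadjusted p under 0.05). There 4030 probes of the whole array passed. Leaving out 1 array leaves no residual degrees of freedom, so pathway counts have no such test. Without replicate 1, the E15.5 array, the Ptgfr log2 ratio was 0.018, and without replicate 2 it was -4.07. Of 70 member means under alternatives, 10 moved by more than 1 SD, each keeping its sign. This count says little of stability, since with 2 arrays the mean of a single array cannot move by more than 1 SD. The Aquantile step also left every ratio of normexp and loess as it was, so those means are counted again. The sign also turned, within 1 SD, for Ptger4 (0.015 without replicate 2) and Ptger2 (-0.41 without replicate 1, -0.0091 after normexp and loess). Normexp and loess moved Ptgs2 to -3.65 and Ptgds to 0.05. The causes were not tested. Signal over background limits Ptger2, Ptgfr and Ptgds.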
